A study of Mus musculus with 8 samples.

Results

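The genes described are 10 imprinted genes with roles in growth: the long non-coding RNAs H19, Meg3, Rian and Mirg, and the protein-coding genes Igf2, Dlk1, Cdkn1c, Peg3, Grb10 and Plagl1. They were chosen by gene symbol, each identifier was counted once, and all 10 were found among the 52325 genes of the deposited table. RNA was sequenced from chondrocytes, the cells of cartilage, that collagenase had freed from mouse rib cages. The libraries came from 4 wild-type mice (WT) and 4 mice without the microRNA gene Mir324 (Mir324-null, called null below), 1 library per animal and with no treatment in either group. The sources used here do not give age, sex, strain or how the null allele was made. Values are TPM, which divide by transcript length and set every library to the same total, so levels can be compared between genes but no sequencing depth is kept.

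In an imprinted gene the copy from 1 parent is expressed and the other is silenced, under the control of DNA methylation at imprinting control regions. Igf2, a fetal growth factor, and H19 share enhancers, and binding of the insulator protein CTCF decides which of them each parental copy expresses. Dlk1 is expressed from the paternal copy of its domain, and Meg3, Rian and Mirg are expressed from the maternal copy as a run of non-coding RNAs that carry microRNAs and snoRNAs. In mice these genes are known as members of an imprinted gene network that is highly expressed in fetal and newborn tissues and declines as growth slows. A microRNA pairs with RNA mainly through its seed, bases 2 to 8, so the sequences missing from the null mice and the matches to them in the 10 genes are given first.

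Mir324 yields a pair of mature microRNAs, printed 5′ to 3′ from RefSeq (GRCm38.p6) with the seed in capitals; they lie on the plus strand at chr11:70012060-70012082 and chr11:70012095-70012114.
mmu-miR-324-5p: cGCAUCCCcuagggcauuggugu
mmu-miR-324-3p: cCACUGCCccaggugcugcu

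The perfect 7-base complement of the seed is GGGATGC for miR-324-5p and GGCAGTG for miR-324-3p. Both were sought on the sense strand only, in the longest 3′ UTR of each coding gene and in the longest transcript of each non-coding gene (GENCODE M21, GRCm38). No member held a match to miR-324-5p, which 8.42% of 3′ UTRs and 7.64% of non-coding transcripts of tested genes held (14.3% and 16.7% in the length classes given below). A match to miR-324-3p was held by 6 of the 10: H19, Igf2 and Meg3 held 2 each, and Mirg, Dlk1 and Grb10 held 1 each. Rian, Peg3, Cdkn1c and Plagl1 held neither. For background, 15.7% of 11292 3′ UTRs and 12% of 877 non-coding transcripts of tested genes held GGCAGTG; among those of 2000 to 4000 nt (UTRs) or at least 2000 nt (non-coding) the share was 27.2% in each class. The matches are shown because they are the letters through which the missing microRNA could pair with these RNAs. A match is a description of sequence and not evidence of a site in use. The capitals mark the 7 matching bases.
Igf2, exon 4, 3′ UTR, chr7:142652383-142652389, minus strand: gggtggggGGCAGTGggggctgg
Igf2, exon 4, 3′ UTR, chr7:142651872-142651878, minus strand: gggcgtggGGCAGTGtcccctca
Dlk1, exon 6, 3′ UTR, chr12:109462722-109462728, plus strand: gagtgtaaGGCAGTGagtgttct
Grb10, exon 16, 3′ UTR, chr11:11932906-11932912, minus strand: caggttgcGGCAGTGtgggtttg
H19, exon 1, chr7:142577816-142577822, minus strand: cagacctgGGCAGTGaaggtata
H19, exon 1, chr7:142577261-142577267, minus strand: aaaagaagGGCAGTGcagggtgt
Meg3, exon 5, chr12:109566803-109566809, plus strand: caccagatGGCAGTGgttgtgac
Meg3, exon 5, chr12:109567641-109567647, plus strand: ccctaaaaGGCAGTGtatgtgtc
Mirg, exon 1, chr12:109730571-109730577, plus strand: gatggctaGGCAGTGgggagaag

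The members also carry microRNA genes of their own. On the same strand RefSeq places 1 in H19, 1 in Igf2, 2 in Meg3, 3 in Rian and 14 in Mirg, and none in the other 5 genes. The sequences below are chosen mature forms: both of the microRNA in an exon of H19, 1 each from Igf2 and Meg3, and 3 from Mirg. Of those from Mirg, 2 share a seed and 1 belongs to Mir369, which had the smallest limma p of its list and is described below with its limits. Seeds are again in capitals. Among all mature forms inside the members, miR-453 and miR-496a-5p share a seed, GGUUGCC, and no other pair does.
mmu-miR-675-5p, in an exon of H19: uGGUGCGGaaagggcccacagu
mmu-miR-675-3p, in an exon of H19: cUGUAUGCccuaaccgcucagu
mmu-miR-483-3p, in an intron of Igf2: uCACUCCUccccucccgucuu
mmu-miR-1906, in an exon of Meg3: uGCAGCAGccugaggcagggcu
mmu-miR-369-3p, at an exon edge of Mirg: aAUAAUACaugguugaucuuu
mmu-miR-453, in an intron of Mirg: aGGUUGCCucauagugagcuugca
mmu-miR-496a-5p, in an intron of Mirg: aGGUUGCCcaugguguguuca

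The libraries set the limits of every comparison. Mir324 itself was listed at 0 TPM in each library of both genotypes and so could not serve as a check of the labels. Null replicate 3 stood apart: its mean Spearman correlation with the other libraries was 0.864, against 0.895 for the next lowest, and pseudogenes held 25.0% of its TPM, against 17.7% to 19.1% elsewhere. The members' fold changes are therefore also given without it, as are other values that it moves strongly. Of 13910 genes tested across genotype, 3 passed at a limma adjusted p of 0.05 (0.0216%), and 577 had an unadjusted p under 0.05 (4.15%). Over all tested genes the median fold change, on the log2 scale, was -0.05 with 8 libraries and 0.02 without null replicate 3. On simulated data with 200 genes changed by 1.5-, 2- or 4-fold, the test recovered 29.9% of 2-fold changes and 5.97% of 1.5-fold changes. Most changes of those sizes were thus missed there. The simulated data had independent noise, no library that stood apart and many more calls than the 3 found here. Those rates therefore do not carry over to the members. A member that did not pass may still have changed by such an amount. Xist was above 1 TPM in 3 WT and 2 null libraries.

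The 10 genes spanned a wide range of levels and H19 led them. H19 ranked 38 of the 13910 tested genes by mean TPM, Igf2 ranked 56, Meg3 ranked 90 and Rian ranked 126. Dlk1 ranked 310, Plagl1 351, Cdkn1c 671, Peg3 784, Grb10 1257 and Mirg 1259. Together the 10 held 0.768% (null replicate 3) to 1.13% (WT replicate 1) of each library's TPM. The order of neighbours was not equally firm. Of the 9 steps between neighbours, only that from Rian down to Dlk1 had ranges that did not overlap across the 8 libraries. Igf2 was above Meg3, Meg3 above Rian and Plagl1 above Cdkn1c within every library, and H19 was above Igf2 in 7 of 8. Dlk1 exceeded Plagl1 in only 4 of 8 libraries and Grb10 exceeded Mirg in 5 of 8, so those neighbours were not separated.

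**Figure D1:**
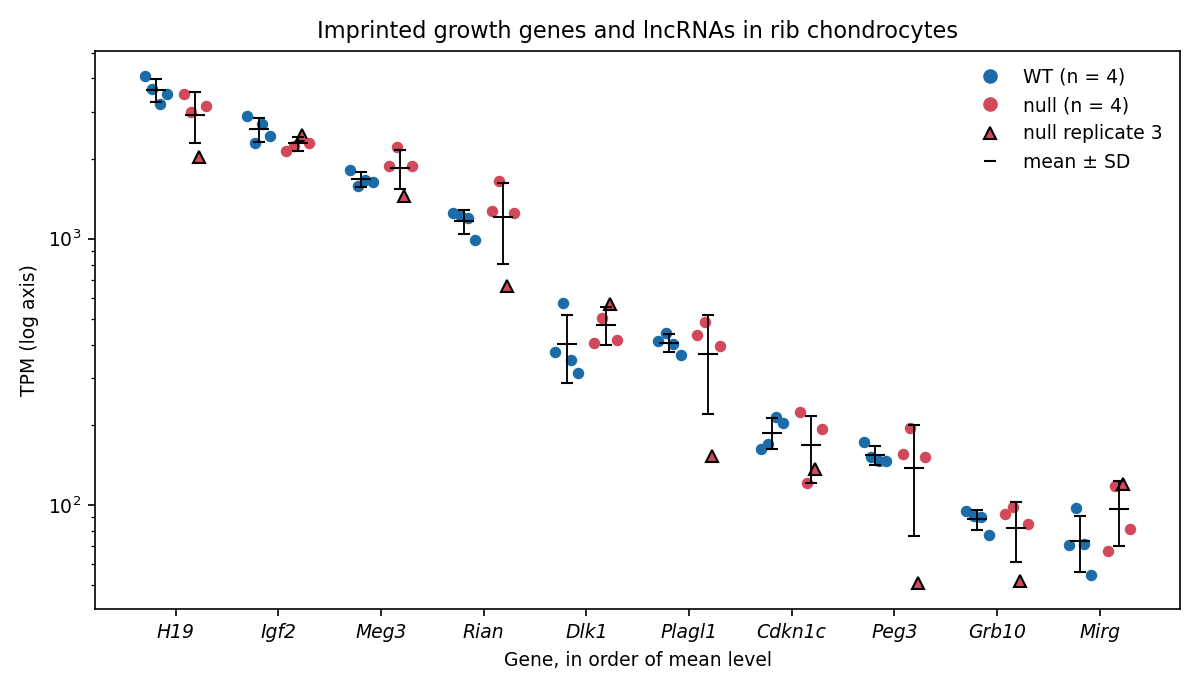
TPM on a log axis for each of the 10 genes, in order of mean level, with 1 point per library, 4 WT and 4 null; lines are mean ± SD and the triangle is null replicate 3. H19 lies between 2033 and 4082 TPM and Mirg between 54.5 and 120 TPM, and WT and null points overlap for every gene.

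No member passed the test between genotypes. With 8 libraries, 0 of 10 passed limma's test, 0 had an unadjusted p under 0.05, and the groups overlapped for all 10, where 2.68% of tested genes had groups that did not overlap. Fold changes were below 0 for 7 members and above 0 for 3, with a median of -0.16 on the log2 scale (-0.09 with median-of-ratios scaling, where Rian is above 0). Without null replicate 3 the signs turned for 4 members, 7 of 10 were above 0 and the median was 0.11; 0 of 10 passed the adjusted test (0.0144% of tested genes did) and 1, Meg3, had an unadjusted p under 0.05 (5.06% of tested genes did). In bulk RNA, fewer cells of a type and less RNA per cell cannot be told apart.

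H19, Igf2 and Cdkn1c lie on distal chromosome 7. H19 (ENSMUSG00000000031, chr7:142575529-142578143, minus strand) is a maternally expressed non-coding RNA and the source of miR-675. In order of replicate number, 1 to 4, as throughout, its TPM was 4082, 3650, 3219 and 3492 in WT and 3508, 2994, 2033 and 3142 in null mice. Null replicate 3 was the lowest of all, and the highest null library lay inside the WT range. The means were 3611 ± 361 TPM in WT and 2919 ± 629 TPM in null mice (SD, n = 4 each). The log2 fold change was -0.33 (95% interval -0.73 to 0.07; limma adjusted p = 0.981), and was -0.17 (-0.40 to 0.07) without null replicate 3.

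Igf2 (ENSMUSG00000048583, chr7:142650766-142666816, minus strand), the growth factor that signals through the IGF1 receptor, stood at 2892, 2282, 2696 and 2437 TPM in WT. Its null values were 2130, 2234, 2457 and 2296 TPM. Unlike H19, Igf2 in null replicate 3 was the highest of its group. The means were 2577 ± 271 TPM in WT and 2279.5 ± 137 TPM in null mice (SD, n = 4 each), with a log2 fold change of -0.17 (95% interval -0.42 to 0.07; limma adjusted p = 0.981). Leaving out null replicate 3 gave -0.21 (-0.43 to 0.01). Summed, H19 and Igf2 held 0.591% to 0.697% of TPM in the WT libraries and 0.449% to 0.564% in the null libraries, or 0.523% to 0.564% without null replicate 3. Of single tested genes, 2.68% had groups that did not overlap with 8 libraries, and 5.99% without null replicate 3. No such share was taken for sums of genes. With each library divided by its median-of-ratios size factor the ranges overlapped, at 0.549% to 0.690% and 0.496% to 0.552%. The sum was given no test.

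Cdkn1c (ENSMUSG00000037664, chr7:143458339-143461050, minus strand) encodes p57, an inhibitor of cyclin-dependent kinases that in mice is needed for normal endochondral bone formation. It stood at 162, 169, 213 and 203 TPM in WT and at 224, 121, 137 and 193 TPM in null mice. The null libraries held both the highest and the lowest value. Means of 187 ± 25.2 and 169 ± 48.1 TPM (SD, n = 4 each) gave a log2 fold change of -0.18 (95% interval -0.67 to 0.30; limma adjusted p = 0.981), or -0.10 without null replicate 3.

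The Dlk1 domain on chromosome 12 held the 3 members with fold changes above 0, and 2 of its genes separated the groups once null replicate 3 was left out. Dlk1 (ENSMUSG00000040856, chr12:109452823-109463336, plus strand) encodes a membrane protein of the Delta family that restrains differentiation of several mesenchymal lineages. It stood at 376, 571, 350 and 312 TPM in WT and at 407, 505, 570 and 418 TPM in null mice. WT replicate 2 lay far above the other WT libraries and level with the highest null library. The log2 fold change was 0.26 (95% interval -0.20 to 0.73; limma adjusted p = 0.981), from means of 402 ± 116 and 475 ± 77.2 TPM (SD, n = 4 each); it was 0.17 without null replicate 3.

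Meg3 (ENSMUSG00000021268, chr12:109541001-109571726, plus strand), the first of the maternal non-coding RNAs downstream of Dlk1, stood at 1814, 1574, 1664 and 1635 TPM in WT. Its null values were 1880, 2204, 1445 and 1876 TPM. Null replicate 3 was the lowest of the 8, while the other 3 null libraries were each above every WT library. The means were 1672 ± 102 and 1851 ± 311 TPM (SD, n = 4 each) and the log2 fold change was 0.13 (95% interval -0.18 to 0.45; limma adjusted p = 0.981). Without null replicate 3 the null mean was 1986 ± 188 TPM (SD, n = 3) and the log2 fold change 0.25 (0.04 to 0.45), with a limma unadjusted p of 0.0257 and an adjusted p of 0.956.

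Rian (ENSMUSG00000097451, chr12:109603940-109661716, plus strand), host of a cluster of box C/D snoRNAs, had the same shape. It stood at 1248, 1226, 1201 and 986 TPM in WT and at 1266, 1653, 666 and 1251 TPM in null mice. Again null replicate 3 was lowest and the other 3 null libraries exceeded all WT libraries, null replicates 1 and 4 by little. The log2 fold change was -0.01 (95% interval -0.60 to 0.58; limma adjusted p = 0.998), which turned to 0.06 with median-of-ratios scaling, and was 0.25 (-0.07 to 0.56; adjusted p = 0.956) without null replicate 3. Meg3 and Rian were the 2 of 10 members with groups that did not overlap once that library was left out, both with null higher; of all tested genes 3.56% did the same, and 5.99% in either direction.

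Mirg (ENSMUSG00000097391, chr12:109729764-109749460, plus strand), the host of the large microRNA cluster at the far end of the domain, stood at 70.5, 97.1, 71.4 and 54.5 TPM in WT. Its null values were 66.9, 117, 120 and 81.0 TPM. Here null replicate 3 was the highest of the 8 libraries, and null replicate 1 lay within the WT range. Means of 73.4 ± 17.6 and 96.4 ± 26.5 TPM (SD, n = 4 each) gave a log2 fold change of 0.38 (95% interval -0.18 to 0.93; limma adjusted p = 0.981), or 0.26 without null replicate 3. Dlk1, Meg3, Rian and Mirg together held 0.331% ± 0.0237 of TPM in WT and 0.363% ± 0.0685 in null mice (SD, n = 4 each). Without null replicate 3 the null libraries held 0.362% to 0.448% and the WT libraries 0.299% to 0.351%. Of single tested genes, 3.56% had null higher with no overlap in those libraries. With size factors and all 8 libraries the ranges overlapped, at 0.304% to 0.347% in WT and 0.344% to 0.425% in null mice. This sum was given no test either.

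The remaining 3 members code for regulators of growth on other imprinted loci, and in each the null group was split by null replicate 3. Peg3 (ENSMUSG00000002265, chr7:6703892-6730431, minus strand), a paternally expressed zinc finger protein, stood at 173, 152, 146 and 147 TPM in WT and at 155, 194, 50.7 and 151 TPM in null mice. Plagl1 (ENSMUSG00000019817, chr10:13060504-13131694, plus strand), a zinc finger transcription factor known in mice to act on other imprinted genes, stood at 412, 443, 401 and 366 TPM in WT and at 433, 488, 153 and 396 TPM in null mice. In both genes null replicate 3 was far below all 7 other libraries, and the other null libraries lay within the WT range or, for null replicate 2, above it.

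Grb10 (ENSMUSG00000020176, chr11:11930508-12038683, minus strand), an adaptor that binds and damps the insulin and IGF1 receptors, stood at 94.6, 90.9, 90.3 and 77.2 TPM in WT and at 92.6, 98.6, 51.8 and 84.6 TPM in null mice. Null replicate 3 was again the lowest library. Log2 fold changes were -0.32 (95% interval -1.18 to 0.55) for Peg3, -0.27 (-1.04 to 0.51) for Plagl1 and -0.14 (-0.61 to 0.32) for Grb10, each with a limma adjusted p of 0.981. Without null replicate 3 all 3 turned sign, to 0.11, 0.11 and 0.06, and their intervals included 0.

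**Figure D2:**
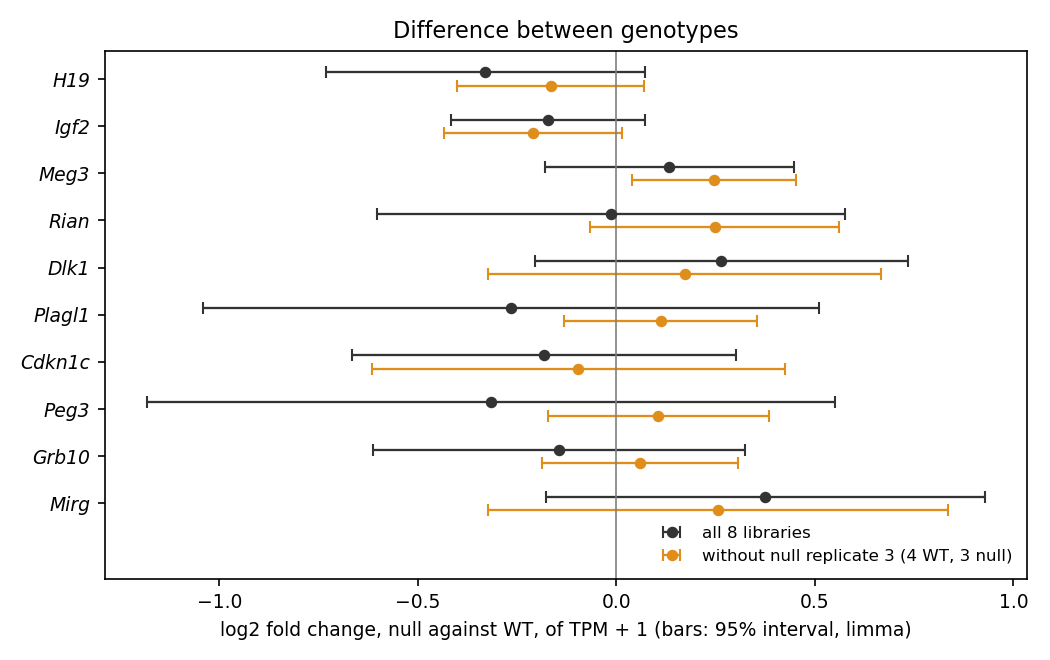
Log2 fold change of TPM + 1, null against WT, for each gene with its 95% interval from limma, with all 8 libraries (4 WT, 4 null) and without null replicate 3 (4 WT, 3 null). All 10 intervals include 0 with 8 libraries; without null replicate 3 the interval of Meg3, 0.04 to 0.45, lies above 0.

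Ratios within a library are almost free of its scaling and compare neighbours in 1 imprinted domain. Igf2 to H19 was 0.717 ± 0.0883 in WT and 0.823 ± 0.264 in null mice (SD, n = 4 each). Rian to Meg3 was 0.698 ± 0.0734 and 0.638 ± 0.124, and Mirg to Meg3 was 0.0448 ± 0.0123 and 0.0543 ± 0.0210. Null replicate 3 held the extreme null value in each: 1.21 for Igf2 to H19, 0.462 for Rian to Meg3 and 0.0838 for Mirg to Meg3. Dlk1 to Meg3 sets a paternally expressed gene against a maternally expressed one. It stood at 0.208, 0.363, 0.211 and 0.191 in WT and at 0.217, 0.230, 0.395 and 0.223 in null mice, so that 6 libraries lay between 0.191 and 0.230 and 1 library of each genotype lay far above. None of the 4 ratios passed between genotypes in an exact two-sided permutation test, with a Benjamini-Hochberg adjusted p of 0.571 for each; the smallest p that 70 labelings allow is 0.0286. Without null replicate 3 the log2 differences were -0.04 for Igf2 to H19, -0.07 for Dlk1 to Meg3, 0.00 for Rian to Meg3 and 0.01 for Mirg to Meg3.

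**Figure D3:**
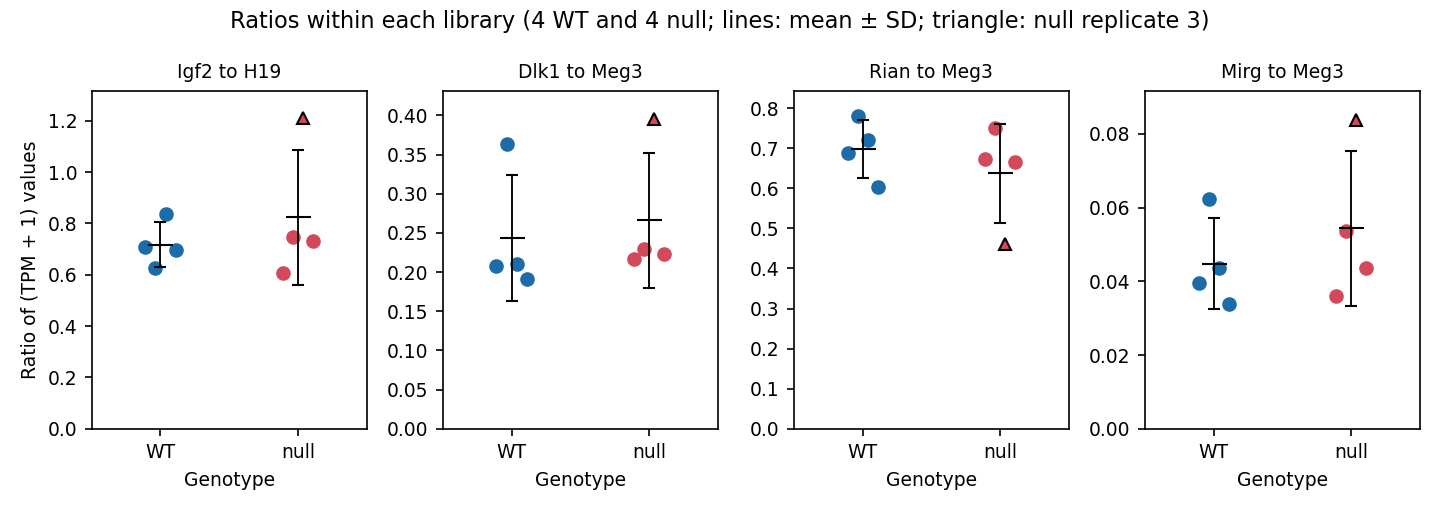
Ratios of (TPM + 1) values within each library for 4 pairs of neighbouring imprinted genes, WT and null (4 libraries each), with mean ± SD and null replicate 3 as a triangle. Null replicate 3 is the highest null library for Igf2 to H19 (1.21), Dlk1 to Meg3 (0.395) and Mirg to Meg3 (0.0838), and the lowest for Rian to Meg3 (0.462).

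The members did not move as a block in null replicate 3. Against the mean of the other 3 null libraries its level was 30.4% for Peg3, 34.8% for Plagl1, 47.9% for Rian, 56.4% for Grb10, 63.2% for H19, 72.7% for Meg3 and 76.1% for Cdkn1c. Igf2 stood at 111%, Dlk1 at 129% and Mirg at 136%. The median over the members was 68.0%, beside 76.5% over all tested genes, and 9.35% of tested genes were at or below the value of Plagl1. This library was the lowest of the 8 for 6 of 10 members, where it was the lowest for 43.2% of tested genes, and the highest for 1 member, where it was the highest for 11.5%. Its level also moved with transcript length. Over 13896 tested genes with a length, the Spearman correlation of its log2 level against the other null libraries with the longest transcript was -0.31. The median of that level was -0.085 up to 1000 nt and -0.02 at 1000 to 2000 nt. It was -0.28 at 2000 to 4000 nt, -0.55 at 4000 to 8000 nt and -0.73 above 8000 nt. Over the 10 members the Spearman correlation was -0.59, and Pearson's r with log2 length was -0.32. Meg3, Peg3 and Rian, with transcripts of 14548, 8694 and 8089 nt, are the longest members. Igf2, Dlk1 and Mirg, at 4722, 4653 and 3822 nt, were above the mean of the other null libraries in this one. Cdkn1c, the shortest at 1901 nt, and H19, at 2286 nt, were below it. The part that RNA length or quality plays in the members' values was not tested.

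Over all 8 libraries, Rian, Peg3, Grb10 and Plagl1 varied together, and so did Mirg and Dlk1. Of 45 pairs of members, 7 passed an exact permutation test of Pearson's r at a Benjamini-Hochberg adjusted p of 0.05 over the 8 libraries, all with positive r, and 0 passed by Spearman's rho (smallest adjusted p = 0.0502). The 6 pairs among Rian, Peg3, Grb10 and Plagl1 had r between 0.93 and 0.99. The same 6 pairs, without null replicate 3, had r between 0.72 and 0.91. For Peg3 and Plagl1, r was 0.99 (exact permutation p = 0.0048, adjusted p = 0.0309; rho = 0.83, exact permutation p = 0.0154) and 0.34 without the 2 libraries farthest from the median of Peg3. Rian with Peg3 was at 0.46 and Peg3 with Grb10 at 0.61 without the 2 farthest libraries, and the other 3 pairs at 0.78 to 0.86. The 3 relations of Peg3 fell most when the farthest libraries were left out. Without null replicate 3 alone, rho was 0.89 for Peg3 with Grb10, 0.79 for Rian with Peg3 and 0.75 for Peg3 with Plagl1. Leaving out the farthest libraries also narrows the range of values, so it cannot show what a relation rests on. Mirg and Dlk1, which lie at opposite ends of their domain and are expressed from opposite parental copies, had r = 0.92 (exact permutation p = 0.0025, adjusted p = 0.0188) and rho = 0.83 (exact permutation p = 0.0154, adjusted p = 0.115). That r was 0.92 without the 2 farthest libraries and 0.88 without null replicate 3. Meg3 and Rian had r = 0.86 (adjusted exact permutation p = 0.0537), and Mirg and Cdkn1c had r = -0.84 (adjusted exact permutation p = 0.0537), or 0.83 and -0.79 without null replicate 3. Without null replicate 3, 0 of 45 pairs passed in 7 libraries and 12 had an unadjusted exact permutation p under 0.05, against 10 with 8 libraries. The 8 libraries include both genotypes and share the fixed TPM total.

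**Figure D4:**
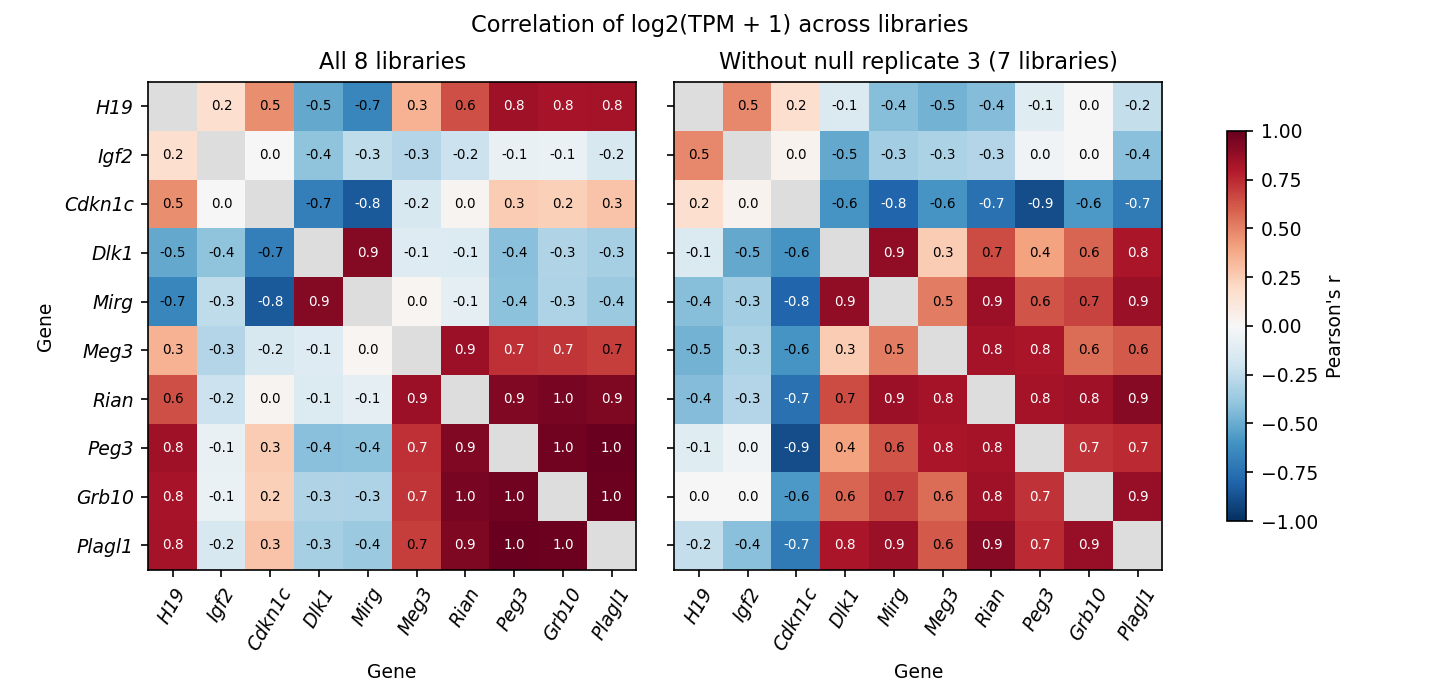
Pearson's r of log2(TPM + 1) between each pair of the 10 genes over all 8 libraries (left) and over 7 libraries without null replicate 3 (right), on a colour scale from -1 to 1. Rian, Peg3, Grb10 and Plagl1 form a block at 0.93 to 0.99 on the left, and Mirg with Dlk1 stays high on both sides (0.92 and 0.88).

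For each member the most similar other gene was taken as the highest r among 7836 candidates over the 8 libraries, as a description. H19 was most like Sc5d (r = 0.98), Igf2 most like Ndufv2 (0.96), Meg3 most like Afap1l2 (0.98), Rian most like Eps8 (0.99) and Mirg most like Ylpm1 (0.99). Dlk1 paired with Arpc2 (0.98), Peg3 with Baz2b (0.995), Grb10 with Ccdc88a (0.996), Cdkn1c with Marveld1 (0.99) and Plagl1 with Ptp4a2 (0.99). None of these is a member. With null replicate 3 included, 824 candidates reached r of 0.9 with Plagl1, 703 with Grb10, 625 with Peg3 and 484 with Rian, but 14 with Meg3 and 6 with Igf2. Plagl1, Grb10, Peg3 and Rian were also the members lowest in that library against the other null libraries. The counts were not taken without it. Without it, r was 0.88 for Plagl1 with Ptp4a2, 0.93 for H19 with Sc5d, 0.94 for Peg3 with Baz2b and 0.96 to 0.99 for the other pairs. Afap1l2, an actin-associated adaptor, stood at 19.03, 9.13, 9.26 and 8.77 TPM in WT and at 19.9, 40.2, 5.30 and 23.6 TPM in null mice, so like Meg3 it was highest in null replicate 2 and lowest in null replicate 3.

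Other imprinted genes were mostly at lower fold changes than 0, as was the median gene. Of 64 listed, 43 were tested, 0 were called by limma and 0 had an unadjusted p under 0.05; 34 had negative and 9 positive values, with a median of -0.08 beside -0.05 for all genes (-0.03 beside 0.00 after median-of-ratios scaling). Of the 43, 21 were positive without null replicate 3. The smallest p belonged to Phlda2, a maternally expressed restrainer of placental growth (17.2 ± 2.35 TPM in WT and 13.3 ± 3.17 TPM in null mice, SD, n = 4 each; log2 fold change -0.37, limma adjusted p = 0.981), followed by Impact (-0.41, or -0.21 without null replicate 3) and Zrsr1 (-0.27). The most abundant were Gnas, encoding a G protein subunit, at 1042 ± 83.0 and 939 ± 80.7 TPM (SD, n = 4 each), the proteoglycan gene Dcn, with a log2 fold change of -0.07 (0.00 after that scaling), and the histone chaperone gene Nap1l4, with 0.17. In the absence of null replicate 3 the log2 fold change was -0.10 for Gnas, 0.09 for Dcn and 0.33 for Nap1l4.

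Receptors and binding proteins decide how much IGF2 reaches a cell. Of 24 listed partners of the IGF pathway 22 were tested, 0 were called, and 10 were positive and 12 negative with a median of -0.05 (0.02 with median-of-ratios scaling). Both turned without null replicate 3, with 15 of 22 positive and a median of 0.09. Igfbp2, a secreted IGF-binding protein, was at 1.79 ± 0.369 TPM in WT and 2.62 ± 0.463 TPM in null mice, and Grb14, the adaptor related to Grb10, was at 1.35 ± 0.194 and 0.907 ± 0.119 TPM (SD, n = 4 each). Both had limma unadjusted p-values under 0.05 and an adjusted p of 0.981. Their log2 fold changes without null replicate 3 were 0.29 and -0.28 and both limma unadjusted p-values were above 0.05. Grb14 was above 1 TPM in every WT library but at 0.799, 0.844 and 0.913 TPM in null replicates 1, 3 and 4. The WT group, where Grb14 was higher, was thus enough to carry it past the filter. Igfbp6 had a log2 fold change of 0.39. The most abundant partners had log2 fold changes of -0.05 for Igfbp7 (0.02 with that scaling), -0.15 for the kinase gene Akt1 and -0.20 for Igfbp4; the last pair had 0.04 and 0.10 without null replicate 3.

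Igf2r, itself imprinted, encodes the receptor that takes IGF2 to the lysosome; it and Igf1r, the signalling receptor, were chosen after their values were seen. Igf2r stood at 42.4, 42.0, 45.2 and 50.0 TPM in WT and at 71.3, 89.0, 19.9 and 62.3 TPM in null mice. The WT libraries were tight, 3 null libraries lay above all of them and null replicate 3 lay far below. The log2 fold change was 0.24 with 8 libraries and 0.70 without null replicate 3 (limma unadjusted p = 0.0015, adjusted p = 0.956). Without that library, 3.56% of tested genes had null higher with no overlap, and 5.06% had a limma unadjusted p under 0.05. The longest transcript of Igf2r is 8887 nt. Tested genes above 8000 nt had a median log2 level of -0.73 in null replicate 3 against the other null libraries. Igf1r stood at 9.43, 10.98, 9.65 and 7.56 TPM in WT and at 11.1, 10.9, 7.75 and 10.7 TPM in null mice, with overlapping ranges.

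Regulators of imprints and the cell cycle partners of Cdkn1c were not called by limma either, and 1 of them, Zfp57, had an unadjusted p under 0.05. Of 15 imprint regulators 9 had positive and 6 negative values, with a median of 0.03; without null replicate 3, 12 were positive and the median was 0.15. Zfp57, a zinc finger protein that protects methylation at imprinting control regions, was at 37.1 ± 11.3 TPM in WT and 23.4 ± 7.42 TPM in null mice (SD, n = 4 each; log2 fold change -0.65, 95% interval -1.29 to -0.01, limma adjusted p = 0.981), and its fold change was -0.46 without null replicate 3, where the unadjusted p was 0.114. Ctcf had -0.46 and Suz12 -0.50, or -0.24 and -0.07 without null replicate 3. Trim28, the cofactor of Zfp57, had 0.16 and Eed 0.18. Of 15 G1 cyclins, kinases and inhibitors 14 were tested, with 5 positive and 9 negative values and a median of -0.08. Among them Cdkn1a, the p21 inhibitor and relative of Cdkn1c, was at 359 ± 46.7 and 367 ± 35.9 TPM (SD, n = 4 each). Cdkn2c had a log2 fold change of -0.26, Ccnd3 -0.35, Cdkn2b -0.19 and Ccnd2 -0.18; leaving out null replicate 3 gave -0.19, -0.12, -0.30 and 0.37, and a median of -0.01 for the list.

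The small RNA genes of these domains were sparsely recorded. Of 56 listed, 54 were in the table, 24 were listed at 0 in all 8 libraries and 14 were tested. Of the 14, 0 were called by limma, 2 had a limma unadjusted p under 0.05 (4.15% of all tested genes did) and 9 had positive values. Mir675, whose hairpin lies in an exon of H19, was listed at 0 throughout although H19 exceeded 2000 TPM in each library, and Mir483 in the intron of Igf2 was above 0 in 3 libraries. Mir453 was the highest of those listed in every library, level with Mir341 in WT replicate 4 (Mir1906-1, described below, is not in the list), at 77.9, 51.0, 109 and 45.5 TPM in WT and at 74.5, 161, 37.1 and 87.5 TPM in null mice. Mir369 was listed at 22.3, 0, 0 and 0 TPM in WT and at 63.9, 32.1, 24.7 and 29.2 TPM in null mice. All 4 null libraries were above all 4 WT libraries, 3 of which were at 0 (limma unadjusted p = 0.00353, adjusted p = 0.981, and exact two-sided permutation p = 0.0286, the smallest this design allows). Of all tested genes, 2.68% had groups that did not overlap. Mir369 was named for the smallest limma p of its list, and the permutation p is not adjusted for that choice. Mir541 stood at 11.1, 0, 15.5 and 0 TPM and at 21.3, 80.4, 12.4 and 29.2 TPM.

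These values are close to the grain of the measurement. In WT replicate 1, 9 of the 19 small RNA genes above 0 held the identical value of 11.1 TPM, and in null replicate 2, 7 of 19 held 16.1 TPM. The commonest value above 0 was 10.6 TPM in null replicate 1 and 12.4 TPM in null replicate 3. In null replicate 4 the smallest was 14.6 TPM. Counted in these steps, Mir369 in WT replicate 1 was level with null replicates 2, 3 and 4, and null replicate 1 was higher. The part of the differing step size in the order of the Mir369 values was not tested. The labels name a kit for total RNA and no size selection. The hairpin of Mir369 shares 1 base with an exon of Mirg. Mir496a, which shares its seed with Mir453, was at 11.1 TPM in 1 WT library and at 10.6, 16.1 and 14.6 TPM in 3 null libraries, and at 0 in the other 4. Mir433 was at 0 in 3 libraries of both genotypes and reached 90.0 TPM in null replicate 2, and Mir341 was at 0 in null replicates 3 and 4.

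Reads can also be divided between a member and a gene inside it. Mir1906-1 and the small RNA gene Gm27300 each lie wholly within an exon of Meg3 and on its strand. Mir1906-1 stood at 448, 475, 339 and 318 TPM in WT and at 565, 537, 117 and 614 TPM in null mice, and its mature sequence also occurs in a second copy, Mir1906-2, on chromosome X. Gm27300 ranged from 159 TPM in null replicate 3 to 605 TPM in null replicate 2. Both were lowest in null replicate 3, as Meg3 was, and reads of these genes and of Meg3 cannot be told apart. Of the exon bases of Igf2, 62.8% are shared with Gm49394 on the same strand, which was listed at 0 in all libraries. An antisense gene, Gm44732, covers 30.7% of the exon bases of Cdkn1c and was at 0.308 TPM or less.

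The labelled cell type was supported by its markers, and markers of other cell types summed to less. All 8 chondrocyte markers were at 1 TPM or more in every library, and their sum ranged from 38480 to 48174 TPM in WT and from 36810 to 49586 TPM in null mice. Perichondrium and fibroblast markers, whose list includes Dcn, summed to 1382 to 4405 TPM in WT and 1550 to 3134 TPM in null mice. The 8 endothelial markers summed to 11.9 to 34.3 TPM in WT and 31.5 to 43.8 TPM in null mice, and adipocyte markers to 35.3 to 59.9 and 49.2 to 65.0 TPM. Of the 6 adipocyte markers, 2 were at 1 TPM or more in every library, and Adipoq, Plin1 and Lep were under 1 TPM throughout. Skeletal muscle markers summed to 42.3 to 111 and 45.3 to 63.4 TPM. Of these 8 markers, 2 were at 1 TPM or more in every library, Myh4 was at 0, and Myh1, Myog and Pax7 were under 1 TPM. Macrophage markers summed to 16.6 to 22.6 and 15.1 to 25.2 TPM, osteoblast markers to 17.9 to 33.8 and 15.1 to 23.7 TPM, and erythroid markers to 111 to 1082 and 281 to 1039 TPM. The part of the endothelial markers in the values of the members was not tested.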

How the data were processed

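RNA of 8 libraries (4 WT, 4 null) was analysed from 1 deposited table of gene values, which the authors call length-scaled TPM. The deposited TPM columns sum to 1000000 once 273 repeated identifiers (813 rows, identical values) are counted once; with the repeats they sum to 1017731.4 to 1020436.2. The column with the largest sum, null replicate 3, was recorded as another unit for that reason alone and treated as TPM like the rest. Kallisto and DESeq2 are named without versions or roles, and the human build GRCh38, per the submitters' processing notes; the identifiers are mouse, 52220 of 52325 matched GENCODE M21 (GRCm38), and the sources used here give neither strand use nor RNA selection. Depth is unknown, so no counting interval is given. The limma p-values weigh the difference between groups against the spread between animals, moderated over all tested genes.

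The plan assumed counts, with limma as the fallback for TPM, which was used. The 13910 genes at 1 TPM or above in 4 libraries were fitted with limma 3.58.1 in R 4.3.3 on log2(TPM + 1), trended, genotype as the only term, Benjamini-Hochberg at 0.05; these fold changes understate low genes. Ratios and correlations used exact permutation tests in scipy 1.17.1. The fit was tested on simulated data for 13910 genes with 200 changed. Samples were not treated as paired by replicate number, and no 2 libraries shared values at more than 0.769% of tested genes. The members and lists were chosen with earlier results of these data known. Genes named beyond the members were, per list, the 3 with the smallest p and the 3 with the highest mean; Igf2r, Igf1r and the genes inside members were added after their values were seen. Alternatives were median-of-ratios scaling, rescaling to coding and long non-coding genes, a pseudocount of 0.1, other filters, a replicate block, each library left out and the libraries with Xist above 1 TPM (WT replicates 1, 3 and 4 and null replicates 1 and 2). For summed shares, scaling and leaving out null replicate 3 were added after seeing the data. No other per-sample columns were present.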

Additional observations from a re-analysis of the deposited data

Results flagged for a closer look

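Of 88 groups of 4 libraries examined, 7 had 1 library far from the other 3; chance gives about 1 in 20. The ratio of Dlk1 to Meg3 was 0.363 in WT replicate 2 against 0.191 to 0.211 in the other WT libraries, and 0.395 in null replicate 3 against 0.217 to 0.230 in the other null libraries. Null replicate 3 held 7.75 TPM of Igf1r, and the other null libraries 10.7 to 11.1 TPM. Among small RNA genes, Mir341 was at 45.5 TPM in WT replicate 4 against 11.1 to 15.5 TPM, and Mir369 at 22.3 TPM and Mir496a at 11.1 TPM in WT replicate 1 were at 0 in the other WT libraries. Nap1l4 was at 99.5 TPM in WT replicate 4 against 159 to 168 TPM.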

How the results depend on the processing

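No member passed limma's test under any setting run; the smallest adjusted p was 0.846 (Plagl1, libraries with Xist above 1 TPM) and the smallest unadjusted p 0.0237 (Dlk1 without WT replicate 2, adjusted p = 0.975). The libraries with Xist leave out WT replicate 2 and null replicates 3 and 4, so that setting also drops null replicate 3. Of the members' values under other settings, 147 kept their direction and 13 reversed. The other filters, the replicate block and the permutation test leave a member's fold change as it was. Their values count as kept though they could not reverse, so the tally overstates stability. The filters and the block add to the tally of list genes below in the same way. The count of genes called over the whole table, 3, was 5 after rescaling to coding and long non-coding genes, 5 with a pseudocount of 0.1, 0 with no filter on low values, 0 with a mean TPM of at least 1, 16 in the libraries with Xist above 1 TPM and 2 to 7 with 1 library left out. At those counts of 0, limma gave 1254 and 575 genes at an unadjusted p under 0.05.

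Deviations of same-numbered samples had correlations of -0.04, 0.11, -0.05 and 0.11, and those of differently numbered samples ranged from -0.13 to 0.11. Correlations this weak cannot show whether the numbers pair the animals, and the main fit used no pairing. The replicate block gave 0 calls, with 632 genes at a limma unadjusted p under 0.05, and changed no other call.

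Log2 fold changes of members reversed as follows. Rian was 0.058 with median-of-ratios scaling, 0.022 after rescaling and 0.34 in the libraries with Xist, and ranged from -0.19 to 0.25 with 1 library left out. In the libraries with Xist, Peg3 was 0.17, Grb10 0.13 and Plagl1 0.23; with 1 library left out they ranged from -0.53 to 0.11, -0.25 to 0.060 and -0.44 to 0.11, the highest value in each case without null replicate 3. Of the 4 ratios, 3 reversed without null replicate 3: Igf2 to H19 ranged from -0.044 to 0.29 with 1 library left out, Dlk1 to Meg3 from -0.075 to 0.34 and Rian to Meg3 from -0.23 to 0.0012. Mirg to Meg3 kept its sign, from 0.0095 (without null replicate 3) to 0.41. The members' median was 0.20 in the libraries with Xist and ranged from -0.18 to 0.11; without null replicate 3, 0 pairs of members passed the correlation test. The median of the small RNA genes was 1.46 in the libraries with Xist.

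Of the values of named genes in other lists, 422 kept their direction, 21 reversed and 1, Mir369, passed the test without WT replicate 1 (limma adjusted p = 0.00347, log2 fold change 5.17). That library is the 1 WT library where Mir369 is above 0, so the comparison is then with 3 zeros that have no spread, the fold depends on the pseudocount (with 8 libraries it is 4.03 at a pseudocount of 1 and larger at 0.1) and the call says nothing of stability. Ranges with 1 library left out were -0.24 to 0.045 for Akt1, -0.49 to 0.37 for Ccnd2, -0.035 to 0.12 for Cdkn1a, -0.16 to 0.088 for Dcn, -0.0011 to 0.70 for Igf2r, -0.44 to 0.10 for Igfbp4, -0.15 to 0.039 for Igfbp7, -0.093 to 0.60 for Mir453, -0.061 to 0.33 for Nap1l4 and -0.00080 to 0.25 for Trim28. In the libraries with Xist, Akt1 was 0.028, Ccnd2 0.52, Dcn 0.058, Mir341 1.14 and Suz12 0.055; with median-of-ratios scaling Dcn was 0.0029 and Igfbp7 0.018. The cause of these changes was not tested.

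Rescaling to coding and long non-coding genes leaves out the small RNA genes and gives no value for their list, and a DESeq2 fit was not run because the table holds no counts. TPM keeps no depth, so precision rests on 4 animals in each group.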
